A study of Mus musculus with 6 samples.

Results

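The genes described here set the decision of a cell to leave G1 and begin DNA replication. They comprised the D-type cyclins Ccnd1, Ccnd2 and Ccnd3, the E-type cyclins Ccne1 and Ccne2, the cyclin-dependent kinases Cdk2, Cdk4 and Cdk6, and the kinase inhibitors Cdkn1b (p27) and Cdkn2b (p15). Every probe set whose platform annotation names one of these 10 genes and no other was taken, which gave 27 of the 45037 probe sets tested, or 10 of the 18193 genes that a probe set names alone. Expression had been measured on 6 Affymetrix mouse arrays in 3 lines of hepatocellular carcinoma cells, with 2 arrays each for I1, M1 and BL185. I1 and M1 are subclone lines derived from the parent BL185 by selection for migration, and all 3 lines were grown in DMEM with serum and received no other treatment. No subclone without that selection was measured, and I1 and M1 are each a single line, so a difference from BL185 cannot be assigned to the selection. The question was how each migratory line differed from the parent. The labels do not tell if a line's 2 arrays stem from separate cultures. The p-values here therefore reflect array-to-array spread, which could be technical alone.

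In the textbook account, mitogens raise the D-type cyclins, which bind CDK4 or CDK6 and phosphorylate the retinoblastoma protein. This frees E2F factors, which switch on cyclin E and the genes of DNA synthesis, and cyclin E with CDK2 then completes the step into S phase. p15 blocks CDK4 and CDK6, and p27 blocks cyclin E with CDK2. In liver, cyclin D1 is known as the cyclin that accumulates when hepatocytes re-enter the cycle after tissue loss, and p15 as a gene induced by TGF-beta.

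Values are log2 signals, in which 1 unit is a 2-fold difference. The array medians lay between 7.87 and 8.11. Signal near or below them may be hard to tell from background, of which no estimate was made here. Of the 27 probe sets, 21 had a mean above 8.11 in every line and 6 had a mean at or below it in every line. The arrays were not equally alike. The between-replicate SD over all probe sets was 0.15 in I1, 0.58 in M1 and 0.11 in BL185, and the SD of all signals on M1 replicate 1 was 1.62, against 1.82 to 1.96 on the other arrays. For the 27 probe sets the same SD was 0.13 in I1, 0.57 in M1 and 0.13 in BL185. The control for 18S ribosomal RNA read 11.27 and 11.51 in I1, 12.50 and 10.68 in M1, and 10.11 and 10.14 in BL185. The 3′ minus 5′ difference of Actb was 1.47 and 1.43 in I1, 1.43 and 1.24 in M1, and 1.08 and 0.88 in BL185. Both measures were higher on every array of the selected lines than on those of BL185, and their part in the differences below was not tested. Of 7 hepatocyte and liver tumour markers, Hnf4a (mean 13.17 in I1, 12.35 in M1, 12.87 in BL185), Krt8 and Krt18 were bright in every line. By their line means, Alb (8.08 in I1, 8.04 in M1, 7.56 in BL185), Afp and Apoa1 lay near the array medians. Ttr lay somewhat above them (8.82 to 9.44). On M1 replicate 1 Afp read 9.89 and Apoa1 9.27, against 7.15 and 7.65 on M1 replicate 2. Of 4 bile duct and progenitor markers, Krt19 was bright (14.68 to 15.06) and Krt7 lay below the array medians. Sox9 passed as lower in M1 (−2.06, adjusted p = 0.0385 by limma) and was lower in I1 without passing (−1.35, adjusted p = 0.0874 by limma). Epcam was higher on every array of I1 and M1 than on either BL185 array (0.42 in I1 and 0.39 in M1) but did not pass. The means of 5 leukocyte markers were 6.66 to 9.15 in I1, 6.72 to 9.13 in M1 and 6.25 to 10.65 in BL185. Cd68 passed the test as lower in I1 and in M1, and Ptprc lay below the array medians in every line. Cd53 was also lower (−1.46 in I1 and −1.66 in M1) but did not pass. Ptprc, Lyz2 and Cd3e had positive changes of 0.21 to 0.61 in I1 and M1. The part of Cd68-expressing cells in the values below was not tested either.

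None of the 27 probe sets passed an adjusted p of 0.05 by limma with Benjamini-Hochberg adjustment over all probe sets. The count was 0 in I1 against BL185, where 0.451% of all probe sets passed, and 0 in M1 against BL185, where 0.588% passed. Between I1 and M1 it was 0, with 0% of all probe sets. At an unadjusted p under 0.05 there were 7 in I1 against BL185, or 25.9%, against 12.1% of all probe sets. Of these 6 were higher and 1 lower, where the background was 3.31% higher and 8.78% lower. The higher ones were probe sets of Ccnd1, Ccnd2 and Ccne1 only, and the lower one was of Cdk6. In M1 there were also 7, against 14.1%, with 5 higher and 2 lower, where the background was 3.81% and 10.3%. Here the higher ones were of Ccnd1 and Ccne1 only, and the lower ones of Ccnd2 and Cdkn2b. Probe sets of the same gene are not independent, so counts among the 27 are not counts of genes. Between I1 and M1 there was 1, Cdkn2b, higher in I1, against 2.08% of all probe sets (1.29% higher and 0.79% lower). The median change of the 27 was 0.11 in I1 and 0.05 in M1, against 0.04 and 0.08 over all probe sets in the same comparisons. The arrays of I1 and BL185 did not overlap in 20 probe sets, 14 higher and 6 lower, which is close to the background of 72.6% (39.6% higher and 33.1% lower). Those of M1 and BL185 did not overlap in 13, 8 higher and 5 lower, against 49.9% (27.5% higher and 22.4% lower). The smallest change that passed anywhere in the table was 2.27-fold in I1 and 2.18-fold in M1, and every change of the 27 was smaller than these, the largest being 1.91-fold in I1 (Ccnd2 1416124_at) and 2.15-fold in M1 (Cdkn2b). As both comparisons use the same BL185 arrays, their values are given side by side and are not independent. In RNA from whole cultures, fewer cells expressing a gene and less RNA per cell cannot be told apart.

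The spread that enters these tests comes mainly from M1, so the counts were also taken without M1 replicate 1. Then 12 of the 27 passed in I1, 9 higher and 3 lower, against a background of 37.8%, and 13 in M1, 11 higher and 2 lower, against 18.1%. M1 then consists of 1 array, whose spread is taken from I1 and BL185. The test of I1 against BL185 is the same whichever M1 array is left out, since a single array adds nothing to the spread. Without M1 replicate 2, 12 passed in I1 (37.8%) and 17 in M1 (62%). Between I1 and M1, 7 passed without M1 replicate 1 (15.2%) and 12 without M1 replicate 2 (44.1%). After cyclic loess, 2 passed in I1 (background 5.49%) and 5 in M1 (6.12%). After quantile normalization, 3 passed in I1 (3.22%) and 4 in M1 (3.78%). Between I1 and M1, 0 passed after either (0.0111% of all probe sets each). With array weights, which gave both M1 arrays little weight, 11 passed in I1 (37.3%) and 0 in M1 (0.575%).

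**Figure D1:**
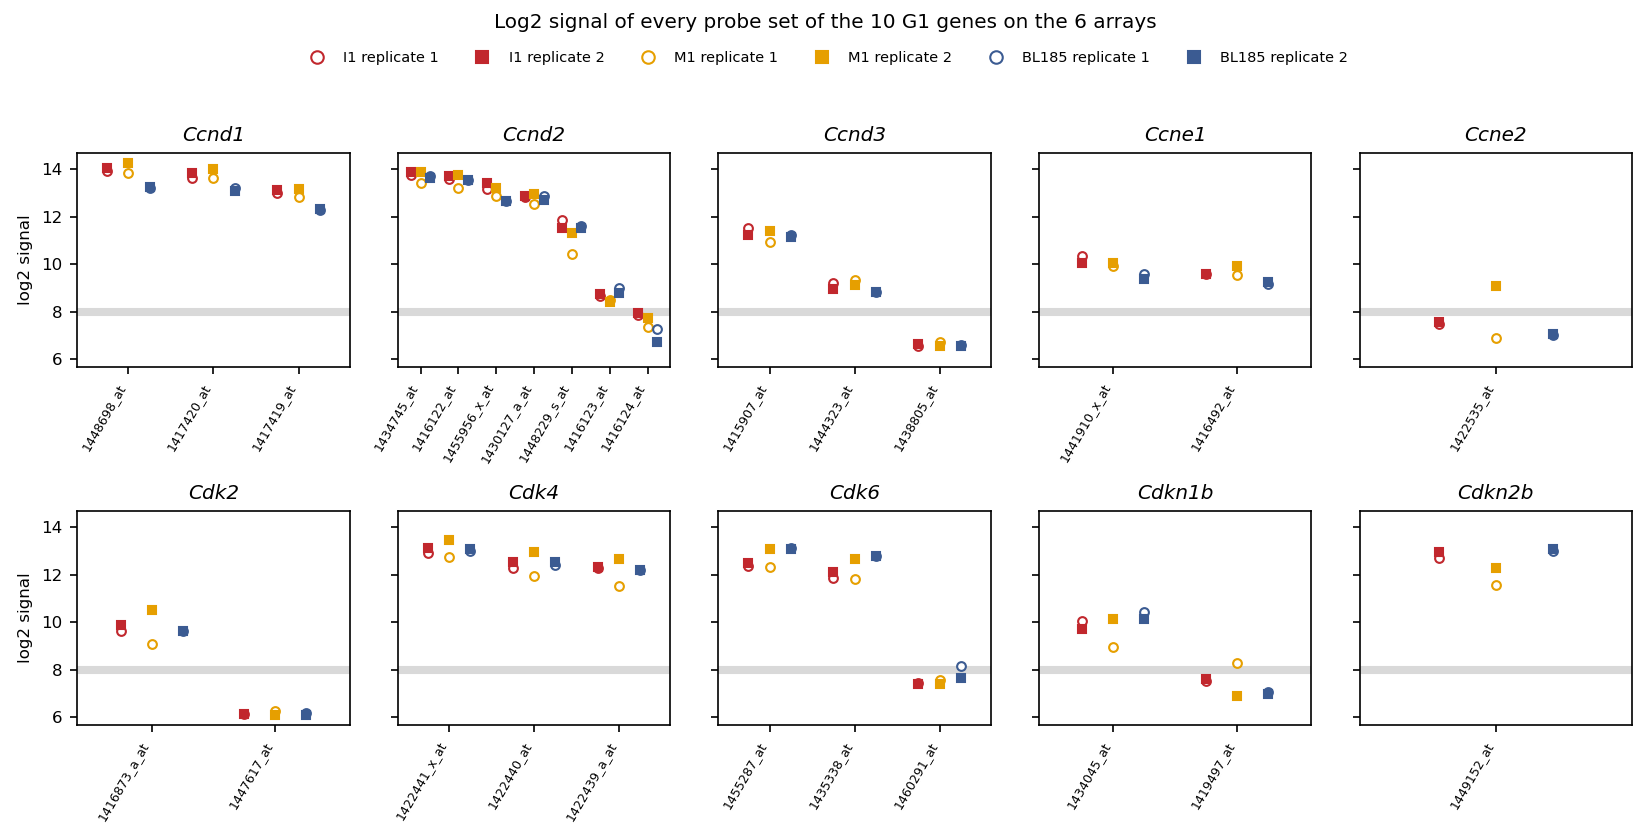
Log2 signal (y axis) of each of the 27 probe sets (x axis, by gene) on the 2 arrays each of I1, M1 and BL185. Open circles are replicate 1 and filled squares replicate 2, and the grey band spans the array medians, 7.87 to 8.11. Levels of different probe sets are not comparable. The 3 Ccnd1 probe sets lie higher on all I1 and M1 arrays than on the BL185 arrays, and M1 replicate 1 is often far from M1 replicate 2.

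Ccnd1, which encodes cyclin D1, the cyclin through which growth factor and adhesion signals reach CDK4 and CDK6, was measured by 3 probe sets. All 3 were higher on every array of I1 and M1 than on either BL185 array. Probe set 1448698_at read 13.93 and 14.07 in I1, 13.83 and 14.28 in M1, and 13.20 and 13.24 in BL185. Probe set 1417420_at read 13.64 and 13.84 in I1, 13.63 and 14.01 in M1, and 13.24 and 13.07 in BL185. Probe set 1417419_at read 13.03 and 13.13 in I1, 12.85 and 13.19 in M1, and 12.31 and 12.35 in BL185. The selected lines overlapped each other in all 3. The log2 changes were 0.59 to 0.78 in I1 (up to 1.71-fold) and 0.67 to 0.83 in M1 (up to 1.78-fold), with SEs of 0.17 to 0.19. The adjusted p by limma was 0.159 to 0.311 in I1 and 0.167 to 0.232 in M1, so none passed, although the 95% intervals of single probe sets, which are not adjusted, lay above 0. For 1448698_at these ran from 0.28 to 1.27 in I1 and from 0.34 to 1.33 in M1.

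The call on Ccnd1 depended on the arrays and the normalization used. Without M1 replicate 1, 1448698_at passed in I1 (0.78, adjusted p = 0.000572) and in M1 (1.05, adjusted p = 0.000636), and so did the other probe sets. Leaving out M1 replicate 2 gives that same test of I1 against BL185, and the change of 1448698_at in M1 was then 0.61. After quantile normalization 1448698_at passed in I1 (0.89, adjusted p = 0.0267) and in M1 (1.03, adjusted p = 0.016), and after cyclic loess likewise (0.85 and 1.06, adjusted p = 0.0251 and 0.0129). In M1 all 3 probe sets passed after both. In I1 it was the only 1 of the 27 that passed as higher after cyclic loess. After quantile normalization 2 of the 27 were higher in I1, so the 3 Ccnd1 probe sets did not all pass there. Every setting tried gave all 3 probe sets a positive change in both lines. The range for 1448698_at was 0.70 to 0.89 in I1 and 0.61 to 1.06 in M1. These values stand near the upper end of all probe sets without being at it, since 1448698_at exceeded 97.2% of all changes in I1 and 96.9% in M1.

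Ccnd2, which encodes cyclin D2, the closest relative of cyclin D1 in many growing tissues, had 7 probe sets that did not move together. The brightest, 1434745_at, read 13.79 and 13.89 in I1, 13.44 and 13.90 in M1, and 13.72 and 13.62 in BL185. Its changes were 0.16 ± 0.19 in I1 and −0.00 ± 0.19 in M1 (SE), with 95% intervals from −0.34 to 0.66 and from −0.50 to 0.50. True differences within those bounds remain possible, and no change under 2.27-fold in I1 or 2.18-fold in M1 passed for any probe set. In contrast, 1455956_x_at, a probe set some of whose probes may match related sequences, read 13.16 and 13.41 in I1, 12.88 and 13.21 in M1, and 12.68 and 12.67 in BL185. Its values did not overlap those of BL185 in either line (0.62 ± 0.18 in I1, adjusted p = 0.264, and 0.37 ± 0.18 in M1, adjusted p = 0.42).

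The remaining Ccnd2 probe sets differed in sign. Probe set 1448229_s_at read 11.86 and 11.54 in I1, 10.45 and 11.32 in M1, and 11.63 and 11.52 in BL185, so that both M1 arrays lay below the other 4. Its difference of I1 minus M1 was 0.81 ± 0.32 (unadjusted p = 0.0522, adjusted p = 0.9999). Probe set 1416123_at read 8.68 and 8.73 in I1, 8.5 and 8.40 in M1, and 8.99 and 8.78 in BL185, and was lower than BL185 on all 4 arrays (−0.18 ± 0.14 in I1 and −0.44 ± 0.14 in M1, adjusted p = 0.684 and 0.286). The dim 1416124_at read 7.88 and 7.97 in I1, 7.37 and 7.72 in M1, and 7.26 and 6.71 in BL185. All lay below the highest array median, 8.11, so its change of 0.94 in I1 is not an exact size. Over the 7 probe sets the change ran from −0.18 to 0.94 in I1, with 6 positive, and from −0.69 to 0.56 in M1, with 2 positive. No direction is therefore given for Ccnd2.

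Ccnd3, which encodes cyclin D3, had 3 probe sets with small differences. Probe set 1415907_at read 11.55 and 11.25 in I1, 10.93 and 11.42 in M1, and 11.23 and 11.13 in BL185. The M1 arrays lay on either side of BL185, and the change was 0.22 ± 0.22 in I1 and −0.01 ± 0.22 in M1. Probe set 1444323_at was higher on all 4 arrays of the selected lines (9.20 and 8.96 in I1, 9.33 and 9.13 in M1, 8.82 and 8.84 in BL185), by 0.25 in I1 and 0.40 in M1, with adjusted p = 0.629 and 0.355 by limma. The third, 1438805_at, lay between 6.55 and 6.74 on all arrays, below the array medians.

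Promoter sequences were available from RefSeq (GRCm38.p6) for 7 of the 10 genes, with 8 start sites in all, each 250 bases before to 50 after the start. They are shown, on the strand of the gene, for Ccne1, Cdk6 and Cdkn2b, the 3 of these genes whose every probe set lay to the same side of BL185 on both arrays of I1 or of M1. Capitals mark the GC box word GGGCGG on either strand.
Ccne1: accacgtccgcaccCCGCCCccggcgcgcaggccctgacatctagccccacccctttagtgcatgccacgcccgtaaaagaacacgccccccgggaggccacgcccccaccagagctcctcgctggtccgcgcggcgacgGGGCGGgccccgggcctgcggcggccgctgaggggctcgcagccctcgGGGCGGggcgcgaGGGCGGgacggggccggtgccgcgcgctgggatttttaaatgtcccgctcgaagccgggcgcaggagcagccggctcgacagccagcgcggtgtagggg
Cdk6: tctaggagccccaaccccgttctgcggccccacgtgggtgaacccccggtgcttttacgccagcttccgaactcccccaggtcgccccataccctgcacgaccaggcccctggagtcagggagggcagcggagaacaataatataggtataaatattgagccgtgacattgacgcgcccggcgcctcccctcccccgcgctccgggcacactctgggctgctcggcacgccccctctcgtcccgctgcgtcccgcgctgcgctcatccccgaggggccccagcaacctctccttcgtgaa
Cdkn2b: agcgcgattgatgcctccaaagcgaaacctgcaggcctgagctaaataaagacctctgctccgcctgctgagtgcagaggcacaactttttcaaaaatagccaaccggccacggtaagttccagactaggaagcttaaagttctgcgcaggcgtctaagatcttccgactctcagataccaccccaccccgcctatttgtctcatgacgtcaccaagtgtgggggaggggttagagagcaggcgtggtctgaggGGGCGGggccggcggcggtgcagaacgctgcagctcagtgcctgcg
The windows are chr7:38107441-38107740 (minus strand) for Ccne1, chr5:3343643-3343942 (plus strand) for Cdk6 and chr4:89310983-89311282 (minus strand) for Cdkn2b. Each holds sequence upstream of the gene and the first bases of its transcript. The word GGGCGG, the core of sites that Sp1 factors bind, occurred 4 times in Ccne1, 0 times in Cdk6 and 1 time in Cdkn2b, with no overlaps. It occurred in 7 of the 8 windows of these genes and in 35.7% of 32851 promoter windows of the same length. The 8 windows held 57.7% to 76.0% G and C, against a median of 52.7% over all windows, and the part of this in the counts was not tested. The E2F-type words TTTCCCGC, TTTCGCGC, TTTGCCGC and TTTGGCGC occurred on either strand in 1 of the 8 windows, that of Cdk2, and in 2.26% of all. A match is a description of letters, and the absence of one shows only that these letters are not in the window.

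Ccne1, which encodes cyclin E1, the partner of CDK2 at the entry to S phase, was higher on every array of I1 and M1 than on either BL185 array at both of its probe sets. Probe set 1441910_x_at read 10.34 and 10.08 in I1, 9.95 and 10.05 in M1, and 9.58 and 9.40 in BL185. Probe set 1416492_at read 9.58 and 9.60 in I1, 9.56 and 9.95 in M1, and 9.18 and 9.24 in BL185. The changes were 0.72 ± 0.16 and 0.38 ± 0.18 in I1 and 0.51 ± 0.16 and 0.54 ± 0.18 in M1 (SE), in that order of probe sets. None passed by limma (adjusted p = 0.164 and 0.506 in I1, 0.274 and 0.285 in M1). Without M1 replicate 1 both passed in I1 (adjusted p = 0.00234 and 0.0152 by limma), and leaving out M1 replicate 2 gives that same test. In M1 the changes were 0.56 and 0.74 without M1 replicate 1, and 0.47 and 0.34 without M1 replicate 2. After quantile normalization neither passed in either line, with adjusted p of 0.179 and 0.123 in I1 and 0.185 and 0.052 in M1, and after cyclic loess 1416492_at passed in M1 (0.85, adjusted p = 0.0276).

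Ccne2, which encodes the related cyclin E2, was measured by 1 probe set, 1422535_at, whose values were 7.49 and 7.56 in I1, 6.90 and 9.07 in M1, and 7.04 and 7.07 in BL185. The 2 M1 arrays lay on opposite sides of every other array, 1 at 9.07 and the other at 6.90, the widest gap among the 27 probe sets. The change was 0.47 ± 0.70 in I1 and 0.93 ± 0.70 in M1, with adjusted p = 0.802 and 0.497. Without M1 replicate 1 the value for M1 was 2.01 (adjusted p = 2.1e-05), and without M1 replicate 2 it was −0.16. No direction in M1 can be given, and as its I1 and BL185 values lay below the array medians, the sizes are not exact.

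**Figure D2:**
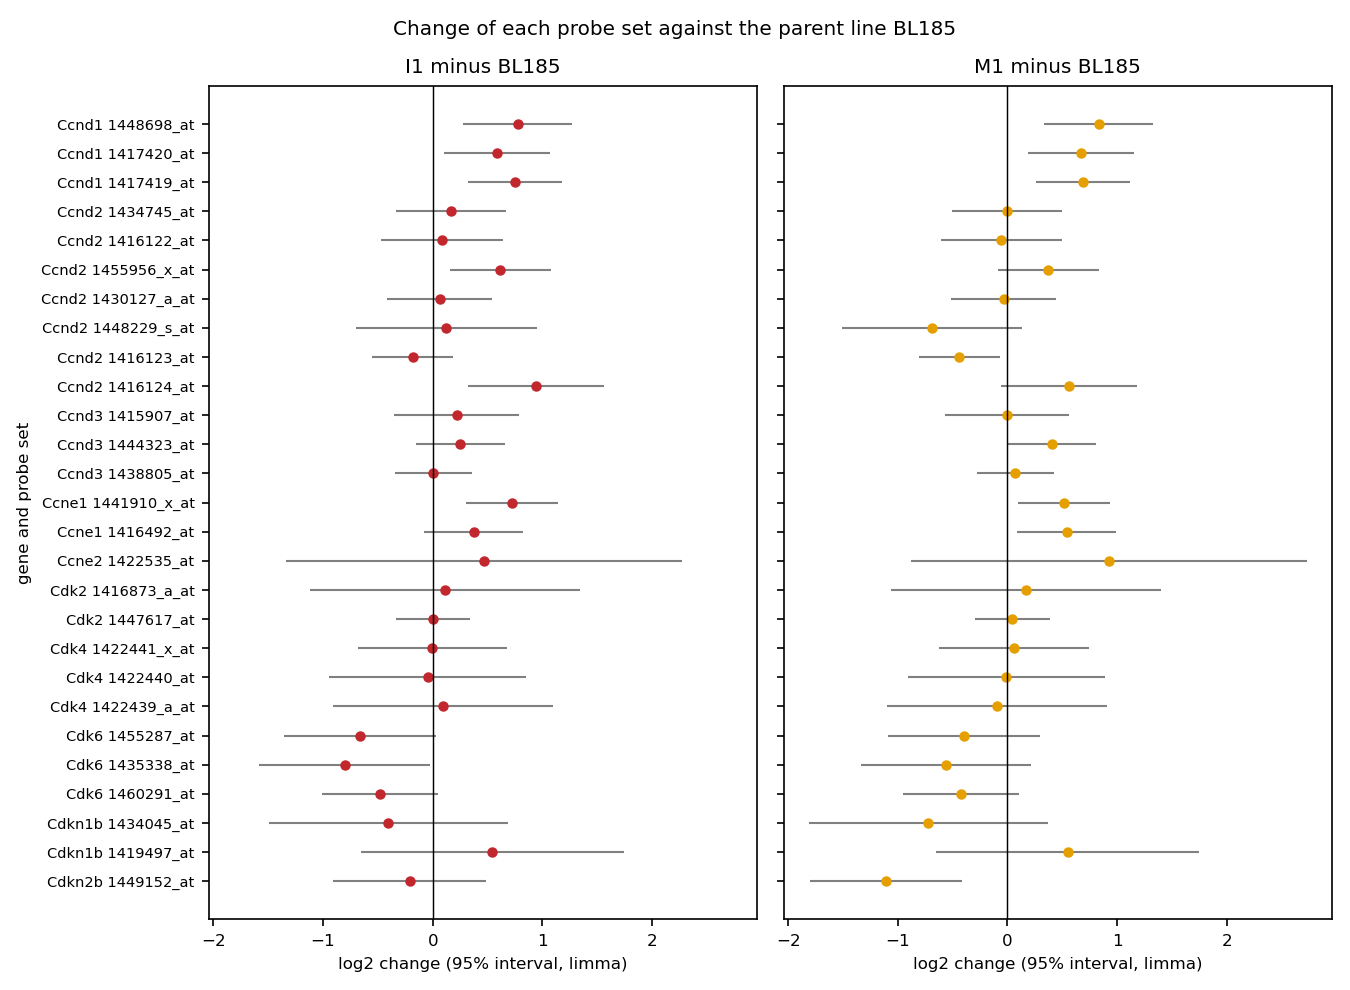
Log2 change of each of the 27 probe sets (x axis) in I1 minus BL185 (left) and M1 minus BL185 (right), with the unadjusted 95% interval of the limma fit; probe sets are listed by gene on the y axis. The Ccnd1 intervals lie above 0 in both lines, those of Cdk4 span 0, and the point of Cdkn2b in M1 is the lowest.

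Of the 3 kinases, Cdk6, which encodes the cyclin D partner prominent in blood cells and in many tumours, was lower in I1 at all 3 probe sets. Probe set 1455287_at read 12.36 and 12.51 in I1, 12.34 and 13.08 in M1, and 13.13 and 13.07 in BL185. Probe set 1435338_at read 11.88 and 12.13 in I1, 11.83 and 12.66 in M1, and 12.81 and 12.80 in BL185. All I1 arrays lay below all BL185 arrays, whereas M1 replicate 2 lay close to BL185 and M1 replicate 1 close to I1. The dim 1460291_at read 7.44 and 7.41 in I1, 7.56 and 7.39 in M1, and 8.15 and 7.65 in BL185. The changes in I1 were −0.66 ± 0.27, −0.80 ± 0.30 and −0.48 ± 0.21, and in M1 −0.40 ± 0.27, −0.56 ± 0.30 and −0.42 ± 0.21 (SE). None passed (adjusted p = 0.398 to 0.467 in I1 and 0.424 to 0.478 in M1 by limma). Without M1 replicate 1 all 3 passed in I1 (adjusted p = 0.00135, 0.000866 and 0.0405), and 1435338_at also passed there after cyclic loess (−0.65, adjusted p = 0.0364) and quantile normalization (−0.67, adjusted p = 0.04997). In M1 the 2 bright probe sets had changes of −0.03 and −0.14 without M1 replicate 1 and −0.77 and −0.98 without M1 replicate 2 (adjusted p = 0.000812 and 0.000365), so the value for M1 rests on replicate 1.

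Cdk4, which encodes the other partner of the D-type cyclins, had 3 bright probe sets with changes close to 0. Probe set 1422441_x_at read 12.93 and 13.14 in I1, 12.74 and 13.45 in M1, and 12.99 and 13.09 in BL185. The I1 and BL185 values overlapped, and the M1 arrays lay on either side of both. The change of the 3 probe sets was −0.05 to 0.10 in I1 and −0.09 to 0.06 in M1, with SEs of 0.26 to 0.39. For 1422441_x_at the unadjusted 95% interval ran from −0.68 to 0.68 in I1 and from −0.62 to 0.74 in M1. True differences within those bounds remain possible. In M1 the sign depended on the array kept. Without M1 replicate 1, 1422439_a_at and 1422440_at were higher, each by 0.49 (adjusted p = 0.0202 and 0.0436), and without M1 replicate 2 they were −0.68 and −0.51 (adjusted p = 0.00105 and 0.0122).

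Cdk2, which encodes the cyclin E kinase, gave 9.63 and 9.87 in I1, 9.09 and 10.53 in M1, and 9.65 and 9.63 in BL185 at probe set 1416873_a_at. The M1 arrays again lay on either side of the others, and the change was 0.11 ± 0.48 in I1 and 0.17 ± 0.48 in M1 (adjusted p = 0.933 and 0.848 by limma). In M1 it was 0.89 without M1 replicate 1 and −0.55 without M1 replicate 2 (adjusted p = 0.0024 and 0.00699). The other probe set, 1447617_at, lay between 6.09 and 6.25 on all arrays, below the array medians.

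Of the inhibitors, Cdkn2b, which encodes p15, the blocker of CDK4 and CDK6, was lower in M1. Its probe set, 1449152_at, read 12.71 and 12.97 in I1, 11.59 and 12.29 in M1, and 13.01 and 13.09 in BL185. Both M1 arrays lay below all others, and both I1 arrays lay just below those of BL185. The change was −0.21 ± 0.27 in I1 (adjusted p = 0.774) and −1.11 ± 0.27 in M1 (adjusted p = 0.182), with an unadjusted 95% interval from −1.80 to −0.41. The M1 value passed after cyclic loess (−0.76, adjusted p = 0.0271), after quantile normalization (−0.78, adjusted p = 0.0322) and without M1 replicate 1 (−0.75, adjusted p = 0.00701), each time at a smaller size. It also passed without M1 replicate 2, at a larger size (−1.46, adjusted p = 4.66e-05).

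Cdkn1b, which encodes p27, the blocker of cyclin E with CDK2, had 2 probe sets of opposite sign. Probe set 1434045_at read 10.04 and 9.71 in I1, 8.96 and 10.15 in M1, and 10.43 and 10.12 in BL185, with changes of −0.40 ± 0.42 in I1 and −0.72 ± 0.42 in M1. Probe set 1419497_at read 7.53 and 7.62 in I1, 8.29 and 6.88 in M1, and 7.07 and 7.0 in BL185, with changes of 0.54 ± 0.47 in I1 and 0.55 ± 0.47 in M1. None passed by limma (adjusted p = 0.739 and 0.703 in I1, 0.462 and 0.523 in M1). The second probe set lay near or below the array medians. The M1 values of the first spanned those of I1, and its M1 change was −0.13 without M1 replicate 1 and −1.32 without M1 replicate 2 (adjusted p = 0.775 and 0.000283). That of the second, 1419497_at, was −0.16 and 1.25 in the same order (adjusted p = 0.51 and 4.36e-05), so its sign in M1 turned with the array kept. p27 is also controlled through its breakdown, which RNA does not show.

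Between the selected lines, I1 and M1 arrays did not overlap in 5 of the 27 probe sets, all higher in I1 (18.5%, against 18.7% of all probe sets in either direction and 6.21% higher in I1 and 12.5% lower). They were 3 probe sets of Ccnd2, 1441910_x_at of Ccne1 and the Cdkn2b probe set. Cdkn2b had the largest difference, 0.90 ± 0.27 (1.86-fold, unadjusted p = 0.021, adjusted p = 0.9999). It was 0.54 without M1 replicate 1, and 1.25 without M1 replicate 2, and passed in both (adjusted p = 0.0384 and 0.000331). For Ccnd1 the difference was −0.08 to 0.06 with SEs of 0.17 to 0.19, and the 95% interval for 1448698_at ran from −0.55 to 0.44.

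**Figure D3:**
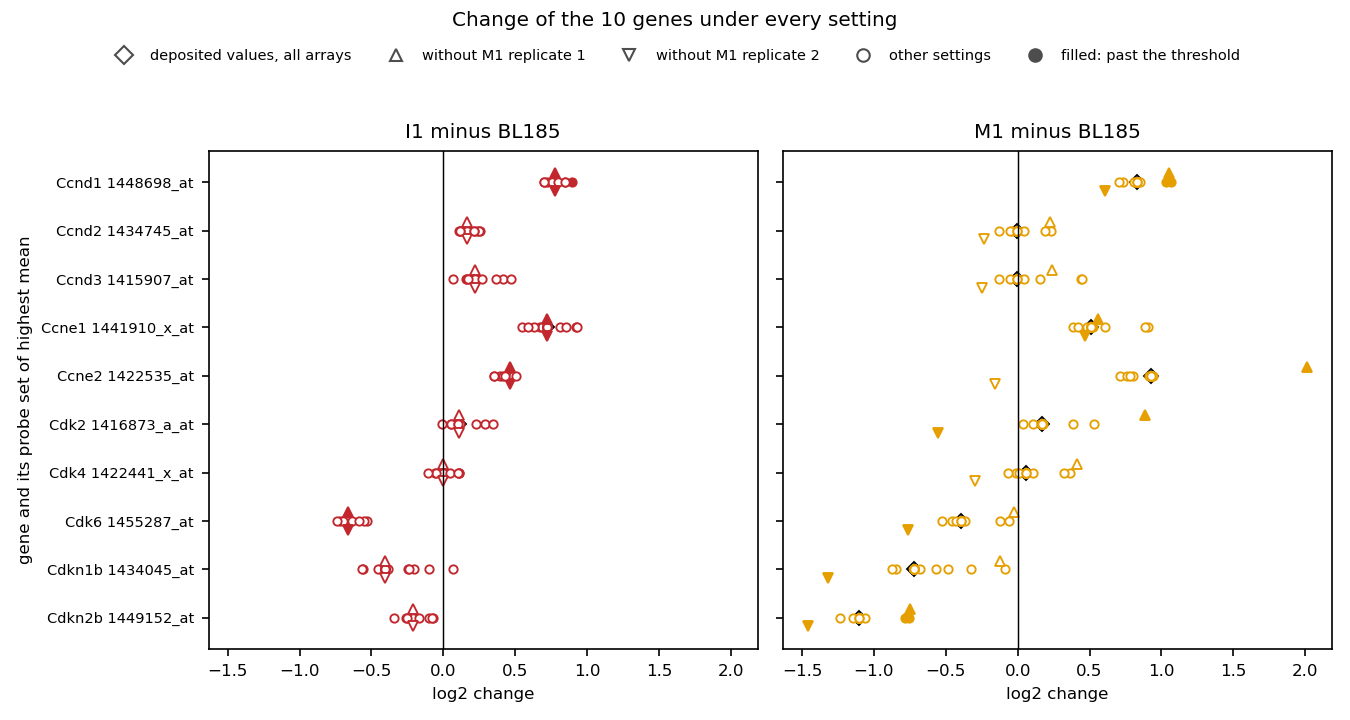
Log2 change (x axis) of the 10 genes, each by its probe set of highest mean (y axis), in I1 minus BL185 (left) and M1 minus BL185 (right) under every setting tried. Diamonds are the deposited values with all arrays, triangles point up without M1 replicate 1 and down without M1 replicate 2, circles are the other settings, and filled symbols passed the threshold of that setting. Ccnd1 and Ccne1 stay above 0 in both panels, while Cdk2 and Ccne2 in M1 lie on both sides of 0.

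The genes around this core were counted by their probe set of highest mean, in lists chosen with earlier results of these data known. Over 18193 genes, 0.594% passed in I1 and 0.792% in M1. Among 6 other proteins that act on cyclin-dependent kinases, 1 rose and 0 fell in each line. This was Cdkn3, a phosphatase that acts on the kinases themselves, with 10.56 and 10.51 in I1, 10.28 and 10.86 in M1, and 8.46 and 8.27 in BL185 (2.17 ± 0.23 in I1, adjusted p = 0.0497, and 2.21 ± 0.23 in M1, adjusted p = 0.0423, SE). Cdkn1a, which encodes p21, read 12.41 and 12.38 in I1, 10.48 and 11.60 in M1, and 12.54 and 12.48 in BL185. Its changes of −0.11 ± 0.38 in I1 and −1.47 ± 0.38 in M1 did not pass (adjusted p = 0.909 and 0.201), and without M1 replicate 1 the M1 change was −0.91 (adjusted p = 0.00102), against −2.03 without M1 replicate 2 (adjusted p = 4.74e-06). Cdkn2a, the neighbour of Cdkn2b that encodes p16 and ARF, differed between the BL185 arrays themselves (10.16 and 11.25), and its changes were −0.86 ± 0.71 in I1 and −0.41 ± 0.71 in M1. The rest of the list did not pass either. Cdkn2c changed by 1.92 ± 0.29 in I1 and 2.06 ± 0.29 in M1, and Cdkn2d by 1.21 ± 0.32 and 0.86 ± 0.32. Cdkn1c changed by −0.37 ± 0.23 and −0.27 ± 0.23, so 3 of the 6 were positive in each line. At an unadjusted p under 0.05 by limma, 3 were higher and 0 lower in I1, and 3 higher and 1 lower in M1. For this list and those below, the background is that of all probe sets. At this threshold it was 3.31% higher and 8.78% lower in I1, and 3.81% and 10.3% in M1. The share over genes is not given here.

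Of 13 pocket proteins, E2F factors and partners, 0 passed in I1, while in M1 1 rose and 0 fell. At an unadjusted p under 0.05 by limma, 3 were higher and 1 lower in I1, and 3 higher and 2 lower in M1. E2f8, an E2F factor that represses transcription and peaks in S phase, gave 9.24 and 9.36 in I1, 9.63 and 10.10 in M1, and 7.96 and 7.99 in BL185 (1.32 ± 0.20 in I1, adjusted p = 0.0867, and 1.89 ± 0.20 in M1, adjusted p = 0.0438). Its BL185 values lay at the array medians, so the sizes are not exact. Rb1, the retinoblastoma protein that the cyclin D kinases phosphorylate, had changes of −0.93 ± 0.57 in I1 and −1.55 ± 0.57 in M1 (adjusted p = 0.619 and 0.33), with 10.28 and 10.37 in I1, 8.83 and 10.56 in M1, and 11.33 and 11.18 in BL185. E2f1, the activator that cyclin D kinases release, had changes of 0.39 ± 0.34 in I1 and 0.37 ± 0.34 in M1 and did not pass. Of 9 parts of the ligases that break down p27 and the cyclins, and of 8 genes of the CDK-activating kinase and of CDC25 and WEE1 control, 0 passed in either line by limma. At an unadjusted p under 0.05 by limma, the ligase list held 1 in I1 and 1 in M1, each lower. The other list held 2 in I1 and 1 in M1, all higher. The p27 receptor Skp2 had changes of 0.20 ± 0.43 in I1 and 0.46 ± 0.43 in M1.

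Genes of S and M phase were counted next. Of 4 S and M phase cyclins and Cdk1, all 4 had a positive change, with medians of 1.92 in I1 and 2.01 in M1, and 1 passed, Ccna2 in M1, while 0 passed in I1 and all 4 were under an unadjusted p of 0.05 in both lines. Ccna2, cyclin A2 of S phase, gave 12.31 and 12.53 in I1, 12.46 and 13.17 in M1, and 10.18 and 10.17 in BL185 (2.25 ± 0.27 in I1, adjusted p = 0.0609, and 2.64 ± 0.27 in M1, adjusted p = 0.0403). Cdk1, the mitotic kinase, had changes of 1.55 ± 0.20 in I1 and 1.73 ± 0.20 in M1 (adjusted p = 0.0724 and 0.054). Of 11 E2F targets of S phase entry, 1 rose in I1 and 2 rose in M1, with 0 lower in either, and the medians were 0.40 and 0.62. Tk1, thymidine kinase, changed by 2.69 ± 0.25 in I1 (adjusted p = 0.0445) and 2.92 ± 0.25 in M1 (adjusted p = 0.0301), while the values for Mcm5, a subunit of the replicative helicase, were 2.25 ± 0.24 in I1 (adjusted p = 0.0519) and 2.65 ± 0.24 in M1 (adjusted p = 0.0335). Over all genes the medians were 0.06 in I1 and 0.07 in M1, and the lists' own share of members called was not tested against this. The rise of the E2F targets in M1 depended on the array kept. Their median change was 1.34 without M1 replicate 1 and 0.47 without M1 replicate 2. On M1 replicate 1, Cdt1 (11.61), Dtl (8.26) and Pola1 (8.26) lay below both BL185 arrays, and the other targets above them. On M1 replicate 2 every target lay above both BL185 arrays. The M1 medians of the S and M phase genes were 2.43 and 1.62 in the same order. With M1 replicate 1 left out, all 4 S and M phase genes passed as higher in both lines, and 6 of the E2F targets in I1 and 10 in M1, where 44.1% and 21.8% of all genes passed. The calls made with all arrays ended when a BL185 or an I1 array was left out, since 0 probe sets in the table passed then. They also ended with median centring (adjusted p = 0.1 for Cdkn3 and 0.084 for Tk1 in I1, and 0.059 for Tk1 to 0.0914 for E2f8 among the 5 genes in M1). With a robust prior those of Cdkn3 (adjusted p = 0.0614) and Tk1 (0.0541) ended in I1, and in M1 those of Cdkn3 (0.0534), E2f8 (0.0522) and Ccna2 (0.0508).

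**Figure D4:**
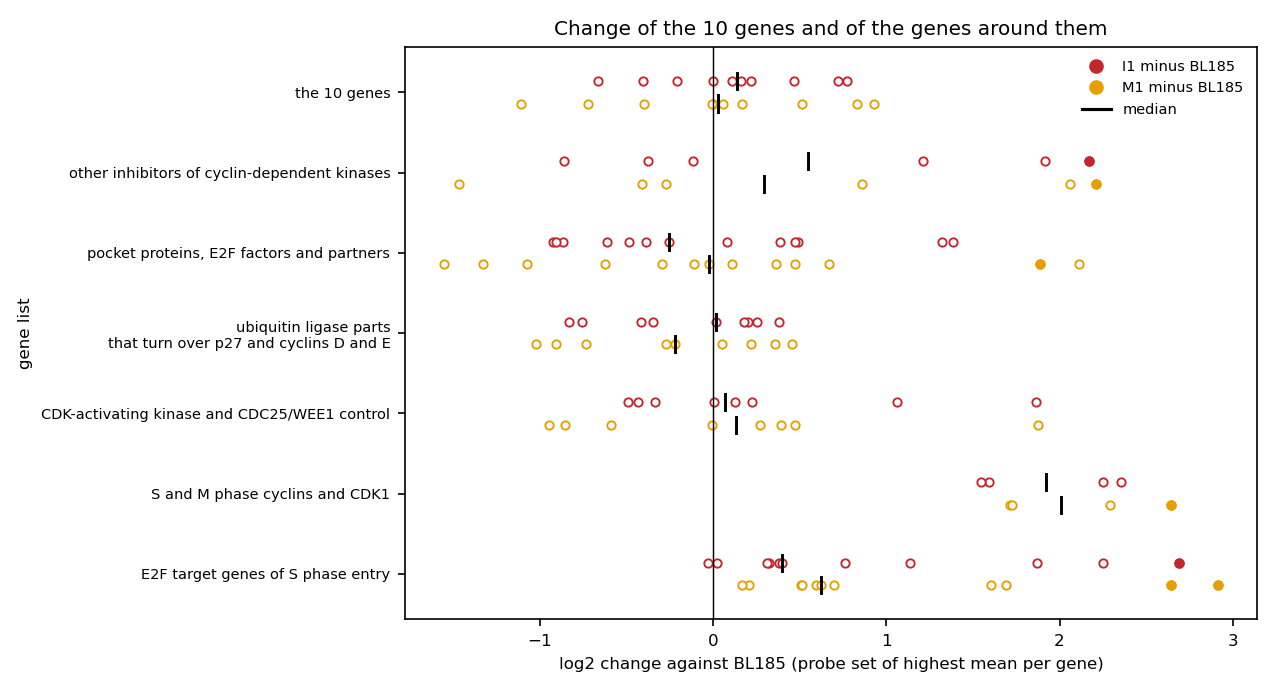
Log2 change against BL185 (x axis) of the 10 genes and of the genes in 6 surrounding lists (y axis), I1 above and M1 below in each row, each gene by its probe set of highest mean. Filled points passed the limma threshold and black bars are medians. The 10 genes lie between −1.11 and 0.93, while S and M phase cyclins and Cdk1 lie between 1.55 and 2.64.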

How the data were processed

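Each array's log2 signals per probe set, as deposited, had been made by the authors with RMA and the affy package, per the submitters' processing notes. Which versions, background step and normalization were used is not given in the sources used here. The log2 scale was inferred from the values, which lay between 5.80 and 15.4. Cells were lysed in Trizol and the RNA labelled with a 3′ IVT kit, per the labels' protocols. Of 45101 probe sets, 64 controls were left out. The platform annotation gave 1 gene for 34945 of the others, several for 932 and none for 9160. The small number of arrays limits the precision.

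Per probe set, a linear model with 1 mean for each line was fitted to the 6 arrays (limma 3.58.1, R 4.3.3, eBayes, 3 residual and 1.97 prior degrees of freedom). Each of 3 contrasts was adjusted by Benjamini-Hochberg over 45037 probe sets at a threshold of 0.05. Intervals are unadjusted 95% intervals of this model, and ± after a change is its SE. The test was checked on simulated data. Members, lists and the rule for named genes were chosen with earlier results of these data known. The rule named up to 4 genes per list that passed against BL185, plus Rb1, E2f1, Skp2, Cdkn1a, Cdkn2a and Cdk1. Cdkn1c, Cdkn2c and Cdkn2d were named outside this rule, to give their list whole. Some listed genes were not analysed here. Alternatives covered gene-level summaries, normalization, dim probe sets, the eBayes prior, array weights, the replicate block, thresholds and each array left out. Figures were drawn with matplotlib 3.10.9 in Python 3.11.15.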

Additional observations from a re-analysis of the deposited data

How the results depend on the processing

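With all arrays, 203 probe sets passed in I1 against BL185, 265 in M1 against BL185 and 0 between I1 and M1, with 0 of the 27 in each. The cause of the shifts that follow was not tested, and settings with fewer arrays or genes rest on less data. After cyclic loess the counts were 2474, 2758 and 5, with 2, 5 and 0 of the 27, and after quantile normalization 1451, 1704 and 5, with 3, 4 and 0 of the 27. The share of calls that were higher moved with them, in I1 to 39.7% (cyclic loess), 52.9% (quantile) and 44.5% (array weights), against 26.6% with all arrays as deposited, and in M1 to 39.4% (cyclic loess), 49.1% (quantile) and 7.76% (median centring), against 23.4%. Median centring left 29 in I1 and 116 in M1, and a robust prior 94 in I1. Array weights gave 16800 in I1, with 11 of the 27. Using only the 2 lines compared gave 17023 in I1, with 12 of the 27, and 0 in M1. Gene-level values gave 93 in I1 and 160 in M1 by the probe set of highest mean, and 112 in I1 by the mean. At an adjusted p under 0.01 there were 0 in I1 and 0 in M1. With the replicate block 0 passed in each comparison. Same-numbered arrays deviated together with correlations of 0.29 (I1 and M1), −0.10 (M1 and BL185) and 0.15 (I1 and BL185). With 2 arrays a line, these correlations cannot tell if the numbers mark pairs. The numbers were not taken as pairs because nothing in the labels says that a number marks a shared batch. Crossing the BL185 numbers in the replicate block, an alternative chosen after seeing the data, also gave 0 in each. Leaving out 1 array gave 0 to 17023 in I1, 0 to 27902 in M1 and 0 to 19871 between I1 and M1, with 0 to 12, 0 to 17 and 0 to 12 of the 27. Each count of 0 came from leaving out an I1 or BL185 array, and every other from leaving out an M1 array. The sign turned in 104 of 1737 values of single probe sets, 46 of them after another normalization, 32 on leaving out an M1 array, 21 on leaving out an I1 or BL185 array and 5 with gene means. Of these, 7 passed with the turned sign, all on leaving out an M1 array. In M1 minus BL185, without M1 replicate 1 and without M1 replicate 2, the values were 0.89 and −0.55 for Cdk2 1416873_a_at, 0.49 and −0.68 for Cdk4 1422439_a_at, and 0.49 and −0.51 for Cdk4 1422440_at. In I1 minus M1 they were −0.78 and 0.66 for Cdk2 1416873_a_at, 0.70 and −0.71 for Cdkn1b 1419497_at, −0.53 and 0.46 for Cdk4 1422440_at, and −1.55 and 0.63 for Ccne2 1422535_at. In 103 values the sign was kept and the change passed where it had not, and 1530 kept both sign and side of the threshold.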

Other observations

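Among the 27 probe sets of the G1 genes, the one with the largest absolute change against BL185, averaged over I1 and M1, was 1448698_at of Ccnd1. The 3 genes most like it were Srrt, Tial1 and Ankle1. Likeness was the root mean square difference over the 6 arrays, after each probe set's BL185 mean was subtracted, and it was 0.078, 0.078 and 0.082 log2 units. Srrt, which encodes a nuclear RNA processing factor, read 11.62 and 11.69 in I1, 11.49 and 12.07 in M1, and 10.99 and 10.83 in BL185. Tial1, which encodes an RNA-binding protein of stress granules, had changes of 0.78 in I1 and 0.77 in M1. Those of Ankle1 were 0.77 in I1 and 0.94 in M1. The order describes these 6 arrays, over 18193 genes compared.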
